A study of Mus musculus with 6 samples.

Results

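Mitochondrial ribosomal protein genes were described across 6 samples of mouse tumours, as the genes of the deposited table whose symbol is Mrpl or Mrps followed by a number. The rule used names only and no measured value. It took 78 of the 21899 genes listed, 49 of the large subunit (Mrpl) and 29 of the small subunit (Mrps). The tumours were subcutaneous grafts of LLC-luc cells, a luciferase-carrying derivative of the mouse Lewis lung carcinoma line, in adult male C57BL/6 mice, and each group had 2 samples. The Laser group was irradiated without a photosensitizer, after saline by the study's methods. The PC-La group was given phycocyanin (PC), a light-absorbing protein of Spirulina, and then irradiated, and the SePC-La group was given phycocyanin from selenium-enriched Spirulina (SePC) and then irradiated. All 6 samples therefore came from irradiated tumours. A tumour without laser was not analysed here, so that no value below separates an effect of the light itself. By the labels the injection was repeated at intervals of 5 days and was followed after 4 h by 10 min of light at 620 nm. The study's methods give another wavelength and another interval. Nothing in the sources used here ties a sample to a single animal, so that the p-values measure the spread between samples, which may be technical. Where the tumours of a group are named below, its 2 samples are meant, which may not be separate tumours.

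The mitochondrion has its own ribosome, which translates the few proteins of the respiratory chain and ATP synthase that mitochondrial DNA encodes. Its RNAs come from mitochondrial DNA, whereas all of its proteins are encoded in the nucleus, made on cytosolic ribosomes and imported. The large subunit holds the peptidyl transferase centre and the exit tunnel, and the small subunit holds the mRNA channel and the decoding site. Some of the proteins have a counterpart in the bacterial ribosome (structural names beginning with u or b), and others exist only in mitochondria (names beginning with m). Among the members, 45 belonged to the first kind and 31 to the second. Mrps36, now known as a component of the 2-oxoglutarate dehydrogenase complex, and Mrpl55 were put in neither. A gene's name does not always give its subunit. Mrps30 (mL65) and Mrps18a (mL66) are placed in the large subunit in structures of the mammalian mitochondrial ribosome, and both were counted here under Mrps as their symbols are written.

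The values are FPKM, a count of fragments scaled by exon length and by sample depth. Comparisons of levels between genes depend on the exon length used, and those between samples on the scaling. Of the 78 members, 77 averaged 1 FPKM or more and were tested. The other, Mrpl53 (mL53), was listed at 0 in every sample, and 88.0% of its exon bases in GENCODE M21 were shared with Gm42688 on the same strand or Ccdc142os on the opposite strand. All 77 tested members gave whole reads when their FPKM were multiplied back by exon length, from 39 reads for a member in a sample to 1990. The totals recovered were 14447794 to 17649489 reads a sample.

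All members were annotated as protein coding, and they lay on 17 chromosomes of the GRCm38 genome, with 11 on chromosome 11, 8 on chromosome 17 and 7 on chromosome 6. They were short genes. Their median merged exon length was 2394 bases, against 4445.5 bases over the protein-coding genes tested. Of the 77 tested members, 60 lay under 4445.5 bases. A protein-coding neighbour that started within 1000 bases on the opposite strand and pointed away was found for 18 members (23.1%), against 10.9% of the protein-coding genes tested. Mrps12, for example, starts 172 bases from Sars2, which encodes the mitochondrial seryl-tRNA synthetase, and Mrps18c starts 29 bases from the DNA helicase gene Helq. Mrpl46 and Mrps11 start head to head on chromosome 7 and share exon bases with each other. As the strand of the reads is not stated, reads in shared exons cannot be assigned to either gene with certainty. Exon bases were shared with some other gene for 33 members.

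Promoter sequences of RefSeq (build GRCm38.p6, 250 bases before to 50 bases after the annotated start) were matched by symbol for 69 members, with 75 promoters in all. The following sequences were searched on both strands. GCGCATGC is the core recognised by NRF1, CCGGAAGT is the core of ETS factors such as GABP, AAGATGGC is the core of YY1 and GGGCGG is the core of SP1. All are factors known to act at promoters of nuclear genes for mitochondrial proteins. A match is a description of the sequence and not a binding site. The NRF1 letters were in 8 of the 75 promoters (10.7%), against 5.46% of the promoters of tested genes and 2.71% of all promoters of that length. The ETS letters were in 12 (16.0%), against 8.65% and 3.89%. The YY1 letters were also in 12 (16.0%), against 4.63% and 2.75%. The SP1 letters were in 39 (52.0%), against 63.5% and 35.7%. At least 1 of the first 3 was in the promoter of 29 members (38.7% of their promoters, against 17.4% and 8.83%). The members with 2 of them were Mrpl32, Mrpl33 and Mrps27. The YY1 letters began within 50 bases of the start in 9 of the 12 promoters that held them (75.0%), against 64.5% of such promoters among the tested genes. For the NRF1 letters this held in 6 of 8 (75.0%, against 50.2%), and for the ETS letters in 8 of 12 (66.7%, against 66.6%).

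The promoters of 5 members whose levels are described below are given here to show these letters where they lie and a promoter without them. The genes were chosen after their values were seen. Each runs 5′ to 3′ on the strand of its gene, and capitals mark a match to NRF1, ETS or YY1 (both strands; overlapping matches run together).
Mrps18c, chr5:100798509-100798808 (+), ETS letters beginning 157 bases before the start: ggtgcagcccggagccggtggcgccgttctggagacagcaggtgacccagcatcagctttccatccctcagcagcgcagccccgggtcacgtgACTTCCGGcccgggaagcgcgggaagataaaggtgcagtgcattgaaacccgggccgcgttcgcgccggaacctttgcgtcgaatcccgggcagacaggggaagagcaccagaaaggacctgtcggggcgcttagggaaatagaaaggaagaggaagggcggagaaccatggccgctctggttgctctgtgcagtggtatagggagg
Mrps12, chr7:28741772-28742071 (-), YY1 letters beginning 199 bases before the start: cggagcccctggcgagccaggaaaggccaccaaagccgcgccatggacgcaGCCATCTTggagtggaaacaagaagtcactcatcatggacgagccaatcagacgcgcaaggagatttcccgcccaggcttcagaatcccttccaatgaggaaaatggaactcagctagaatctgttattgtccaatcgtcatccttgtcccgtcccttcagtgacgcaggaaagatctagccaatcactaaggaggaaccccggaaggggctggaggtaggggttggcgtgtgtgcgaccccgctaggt
Mrps26, chr2:130563507-130563806 (+), ETS letters beginning 15 bases before the start: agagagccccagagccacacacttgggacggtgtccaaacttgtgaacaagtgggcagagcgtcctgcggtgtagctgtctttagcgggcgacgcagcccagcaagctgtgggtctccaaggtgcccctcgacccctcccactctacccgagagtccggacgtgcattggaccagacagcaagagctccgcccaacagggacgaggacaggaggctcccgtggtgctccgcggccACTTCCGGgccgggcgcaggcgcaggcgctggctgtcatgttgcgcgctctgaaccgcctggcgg
Mrps18a, chr17:46110754-46111053 (+), YY1 letters beginning 12 bases after the start: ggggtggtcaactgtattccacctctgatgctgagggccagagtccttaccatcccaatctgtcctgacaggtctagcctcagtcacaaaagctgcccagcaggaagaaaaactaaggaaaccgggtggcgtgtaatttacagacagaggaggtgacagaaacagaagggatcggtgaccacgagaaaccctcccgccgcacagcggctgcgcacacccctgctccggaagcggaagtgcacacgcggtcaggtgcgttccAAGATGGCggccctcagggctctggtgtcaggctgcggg
Mrpl28, chr17:26123253-26123552 (+), with none of the 3: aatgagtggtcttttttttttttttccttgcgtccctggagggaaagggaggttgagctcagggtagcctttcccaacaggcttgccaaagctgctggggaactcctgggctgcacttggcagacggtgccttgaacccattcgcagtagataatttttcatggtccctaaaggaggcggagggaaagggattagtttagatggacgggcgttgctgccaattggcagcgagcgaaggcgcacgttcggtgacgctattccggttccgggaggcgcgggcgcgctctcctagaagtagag

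Members with and without such a match had similar medians. The median difference between SePC-La and Laser was 0.16 on the log2(FPKM + 1) scale for the 29 tested members with a match and 0.14 for the 39 without, and between SePC-La and PC-La it was 0.15 and 0.17. Between PC-La and Laser it was -0.004 and 0.007.

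Levels differed widely among members, although most of these proteins are present once in a ribosome. In the large subunit the mean over the 6 samples ranged from 1.84 to 60.2 FPKM, a 32.7-fold range around a median of 15.9 FPKM, and in the small subunit it ranged from 3.30 to 38.5 FPKM, an 11.7-fold range around a median of 11.9 FPKM. The highest mean was that of Mrpl34 (bL34m), a small protein of the bacterial core of the large subunit, with 53.2 and 57.6 FPKM in the Laser tumours, 55.9 and 57.6 in the PC-La tumours and 67.0 and 70.1 in the SePC-La tumours. Mrpl12 (bL12m), the stalk protein that contacts elongation factors, followed with 44.4 and 60.1 FPKM in the Laser tumours, 44.6 and 42.7 in the PC-La tumours and 59.7 and 68.2 in the SePC-La tumours. Mrpl2 (uL2m), which lies at the peptidyl transferase centre, had 43.3 and 58.1 FPKM in the Laser tumours, 47.2 and 41.7 in the PC-La tumours and 60.2 and 62.8 in the SePC-La tumours. The PC-La samples of Mrpl12 and Mrpl2 lay within or below the range of Laser, and the Laser samples were themselves far apart.

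The lowest tested levels of the large subunit were those of Mrpl33, Mrpl48 and Mrpl43. The merged exon length of Mrpl33 was 7326 bases, with 190 to 246 reads a sample. That of Mrpl34, the highest, was 607 bases, with 508 to 743 reads, so that their FPKM differ by more than their reads. Mrpl33 (bL33m) had 2.14 and 1.89 FPKM in the Laser tumours, 1.73 and 1.82 in the PC-La tumours and 1.80 and 1.67 in the SePC-La tumours, and was the member whose SePC-La samples both lay below both Laser samples. Mrpl48 (mL48), of the central protuberance, ranged from 2.38 to 3.61 FPKM over the 6 samples. Mrpl43 (mL43) ranged from 4.13 to 7.24 FPKM, with 33.4% of its exon bases shared with Twnk, the gene of the mitochondrial DNA helicase Twinkle.

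In the small subunit the highest means were those of Mrps21, Mrps15 and Mrps28. Mrps21 (bS21m) had 34.9 and 31.8 FPKM in the Laser tumours, 37.8 and 38.5 in the PC-La tumours and 39.9 and 48.3 in the SePC-La tumours. Mrps15 (uS15m) had 26.6 and 29.9 FPKM in the Laser tumours, 31.8 and 31.0 in the PC-La tumours and 32.7 and 38.5 in the SePC-La tumours. In both genes the lower SePC-La sample lay above the 4 other samples. The lowest means were those of Mrps11 (3.77 FPKM), Mrps18c (3.37 FPKM) and Mrps25 (3.30 FPKM), the last with 69.8% of its exon bases shared with Nr2c2 on the opposite strand. Fragments from shared bases can be lost to both genes in counting while the length still includes them, which was not tested.

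**Figure D1:**
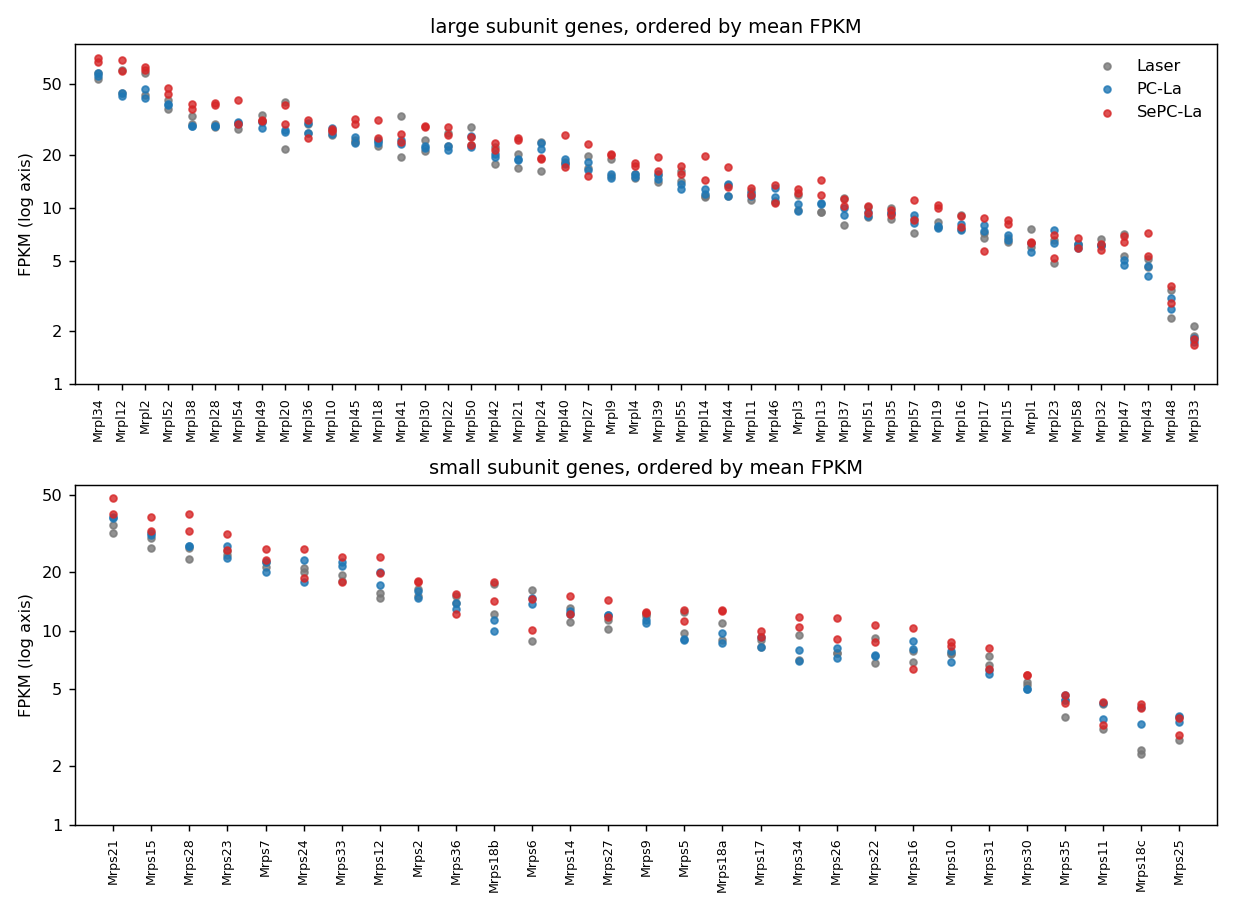
FPKM (log axis) of the 77 tested members in each of the 6 samples, large subunit above and small subunit below, ordered by mean FPKM and coloured by group. The order runs from Mrpl34 at 60.2 FPKM to Mrpl33 at 1.84 FPKM and from Mrps21 at 38.5 FPKM to Mrps25 at 3.30 FPKM. SePC-La lay above PC-La without overlap for 42 members (54.5%, against 26.0% of all genes tested) and below it for 1. It lay above Laser without overlap for 34 (44.2%, against 15.0%) and below it for 1.

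The SD within a group was a median of 8.38% of the mean for Laser, 4.53% for PC-La and 9.23% for SePC-La over the 77 members, against 13.3%, 6.16% and 10.9% over the protein-coding genes tested. Laser replicate 2 stood apart from its group. Over all genes its log2 values correlated with Laser replicate 1 at 0.946, below the 0.986 and 0.983 of Laser replicate 1 with the PC-La samples, and its summed skeletal muscle markers were 156 FPKM against 22.1 in Laser replicate 1 and 1.55 to 6.14 in the other samples. Of the epithelial markers, the keratins Krt8 and Krt18 were at 78.1 to 114 and 110.0 to 166 FPKM, whereas Epcam and Krt7 reached at most 0.13 and 0.07 FPKM and Nkx2-1, the lung lineage factor, was listed at 0 in every sample. In whole tumours, fewer cells of a type and less RNA per cell cannot be told apart.

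The sum over the 77 members was 1206 and 1303 FPKM in the Laser tumours, 1257 and 1220 in the PC-La tumours and 1375 and 1538 in the SePC-La tumours. Both SePC-La sums lay above all others, and the PC-La sums lay within the range of Laser. The large subunit held 836 and 926 FPKM of this in the Laser tumours, 863 and 844 in the PC-La tumours and 960 and 1064 in the SePC-La tumours. The small subunit held 370.0 and 378 FPKM in the Laser tumours, 394 and 377 in the PC-La tumours and 415 and 473 in the SePC-La tumours. SePC-La replicate 2 was the highest of the 6 samples for 48 members and SePC-La replicate 1 for 13, whereas Laser replicate 2 was for 9, Laser replicate 1 for 4, PC-La replicate 1 for 2 and PC-La replicate 2 for 1. SePC-La replicates 1 and 2 were the lowest sample for 9 and 2 members.

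PC-La was compared with Laser to see what the photosensitizer added to the light. The differences of the mitochondrial ribosomal protein genes were centred on 0. In the large subunit the median difference was -0.003 on the log2(FPKM + 1) scale, with 23 of 48 members above 0, and in the small subunit it was 0.02, with 16 of 29 above 0. Over all 10853 genes tested the median was -0.001. A member was called higher or lower at an unadjusted p under 0.05 in a limma fit over all genes. None of the 48 large subunit genes was called, and of the 29 small subunit genes 1 was called higher and none lower. Over all genes tested 3.38% were called higher and 2.4% lower. The standard error of a member's difference had a median of 0.15.

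The gene called was Mrps18c (bS18m), of the platform of the small subunit. It had 2.31 and 2.42 FPKM in the Laser tumours, 4.04 and 3.29 in the PC-La tumours and 4.18 and 3.99 in the SePC-La tumours. Both groups given phycocyanin lay above Laser without overlap, and overlapped each other. PC-La against Laser differed by 0.47 on the log2 scale (SE 0.15, adjusted p = 0.753), a 1.55-fold difference of the means. The values rest on 39 to 75 reads a sample, and 23.2% of the exon bases are shared with Gm43511 on the same strand. Without PC-La replicate 1 no member was called, and voom, a limma method for counts run on the recovered reads, called none in this comparison.

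Next in size in the other direction was Mrps18b (mS40), a paralogue of Mrps18c, with 12.1 and 17.3 FPKM in the Laser tumours, 9.99 and 11.4 in the PC-La tumours and 17.8 and 14.1 in the SePC-La tumours. Its difference between PC-La and Laser was -0.41 (SE 0.20, adjusted p = 0.753), which missed the threshold, although both PC-La samples lay below both Laser samples. The groups did not overlap for 12 members in the direction of PC-La and for 12 in that of Laser (15.6% each), against 20.4% and 21.6% of all genes tested. No member met the criterion of the study, an absolute log2 fold change over 1 with an unadjusted p under 0.05, which 1.29% of all genes tested met. The sign of the median of the 77 members depended on which Laser sample was used. Without Laser replicate 1 it was -0.03, beside 0.01 over all genes tested. Without Laser replicate 2 it was 0.01, beside -0.01.

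SePC-La was compared with Laser for the effect of the selenium-enriched photosensitizer beside light alone. Most members were higher in SePC-La by a small amount. The median difference was 0.18 in the large subunit, a 1.13-fold difference of FPKM + 1, with 40 of 48 members above 0. It was 0.16 in the small subunit (1.11-fold), with 28 of 29 members above 0, while the median over all genes tested was -0.06. In the large subunit 9 members (18.8%) were called higher and in the small subunit 5 (17.2%), and none was called lower. Over all genes tested 4.9% were called higher and 7.24% lower. No member had a Benjamini-Hochberg adjusted p under 0.05 in limma over the 10853 genes or with voom. At the unadjusted threshold voom called 11 members higher, beside 4.71% of all genes in that fit. The adjusted p of the 14 members called in limma ranged from 0.376 to 0.411.

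All 14 differences were under 1 on the log2 scale, from 0.30 to 0.60, and the fold differences of the means ran from 1.24 to 1.73. No member met the criterion of the study, which 0.682% of all genes tested met. The SePC-La samples lay above both Laser samples without overlap for 34 members (44.2%), against 15.0% of all genes tested, and below them for 1, Mrpl33, against 25.6%. With 2 samples against 2 an exact permutation test of a single gene cannot give a p below 0.333.

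In the small subunit the smallest p were those of Mrps18c, Mrps28 and Mrps12. For Mrps18c, whose FPKM are given above, SePC-La was higher by 0.60 (SE 0.15, adjusted p = 0.376). Mrps28 (bS1m) had 23.4 and 26.4 FPKM in the Laser tumours, 27.0 and 27.1 in the PC-La tumours and 32.6 and 39.6 in the SePC-La tumours. Both SePC-La samples were above the 4 others, and the difference from Laser was 0.51 (SE 0.14, adjusted p = 0.376). Mrps12 (uS12m), the protein of the decoding site, had 15.6 and 14.8 FPKM in the Laser tumours, 20.1 and 17.2 in the PC-La tumours and 19.8 and 23.9 in the SePC-La tumours. Its SePC-La samples lay above Laser and overlapped PC-La. The difference from Laser was 0.49 (SE 0.15, adjusted p = 0.376). Its divergent neighbour Sars2, named after the values were seen, went the other way without being called, with 4.24 and 3.49 FPKM in the Laser tumours and 3.03 and 3.73 in the SePC-La tumours (difference -0.15, SE 0.16). The other members called were Mrps21, described above, with a difference of 0.39, and Mrps26 (mS26), with a difference of 0.38.

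In the large subunit the smallest p were those of Mrpl28, Mrpl14 and Mrpl13. Mrpl28 (bL28m) had 29.8 and 28.5 FPKM in the Laser tumours, 29.1 and 29.0 in the PC-La tumours and 38.2 and 39.3 in the SePC-La tumours. The 4 samples of the other groups lay between 28.5 and 29.8 FPKM, and both SePC-La samples lay above them. The difference from Laser was 0.40 (SE 0.11, adjusted p = 0.376). Mrpl14 (uL14m), at the interface of the subunits, had 11.5 and 11.6 FPKM in the Laser tumours, 12.0 and 12.7 in the PC-La tumours and 14.4 and 19.6 in the SePC-La tumours. The SePC-La samples differed from each other by more than the Laser and PC-La samples did, and the difference from Laser was 0.51 (SE 0.16, adjusted p = 0.378). Mrpl13 (uL13m) had 9.46 and 9.47 FPKM in the Laser tumours, 10.7 and 10.4 in the PC-La tumours and 11.8 and 14.4 in the SePC-La tumours. The 3 groups did not overlap, with PC-La between the others. The difference from Laser was 0.42 (SE 0.14, adjusted p = 0.382). Mrpl45, Mrpl21, Mrpl30, Mrpl34, Mrpl19 and Mrpl15 were also called, with differences of 0.30 to 0.39, and Mrpl19 has 36.0% of its exon bases shared with Gcfc2.

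**Figure D2:**
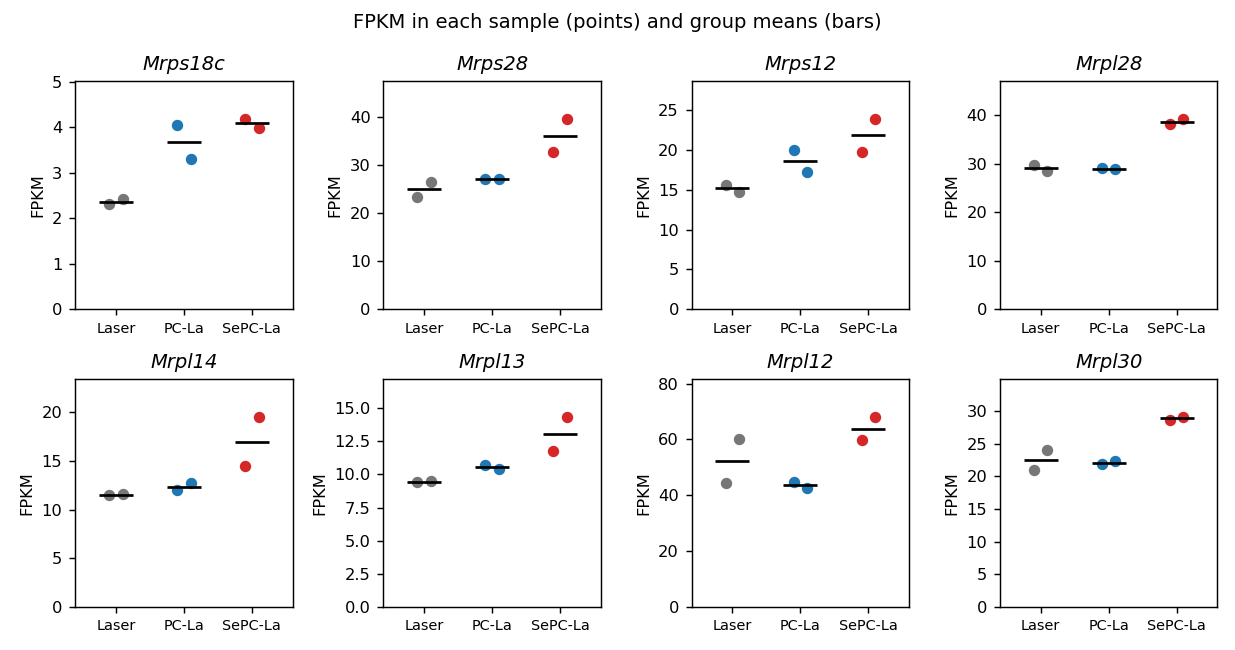
FPKM of 8 members named in the comparisons, with the 2 samples of each group as points and the group mean as a bar. The SePC-La samples lie above both Laser samples in all of them but Mrpl12, and Mrps18c is the one called higher in PC-La than in Laser (1.55-fold).

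The counts depended on SePC-La replicate 2. Without it, 1 large and 2 small subunit genes were called higher, 3.9% of the members against 3.81% of all genes tested in that fit, so that the share of members called was no larger than the background. The medians were then 0.07 and 0.13, with -0.09 over all genes. Without SePC-La replicate 1, 17 members (22.1%) were called higher, against 3.59% of all genes, and the medians were 0.28 and 0.26. Without Laser replicate 1, 5 large and 4 small subunit genes were called higher (11.7%, against 7.41%) and 1 large subunit gene lower. Without Laser replicate 2, 13 large and 7 small subunit genes were called higher, against 7.24% of all genes. Without either PC-La sample, which enters through the shared estimate of spread, 2 large and 3 small subunit genes were called (6.49%, against 2.82% to 2.83%). Mrps18c, Mrps28 and Mrpl28 kept an unadjusted p under 0.05 whichever of the 6 samples was left out. The median deviation of the 77 members from their means over the 6 samples was -0.10 and -0.04 in the Laser tumours, -0.05 and -0.08 in the PC-La tumours, and 0.05 and 0.21 in the SePC-La tumours. SePC-La replicate 2 thus stood further from the other groups than SePC-La replicate 1 did, with an SD within groups of 0.07.

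**Figure D3:**
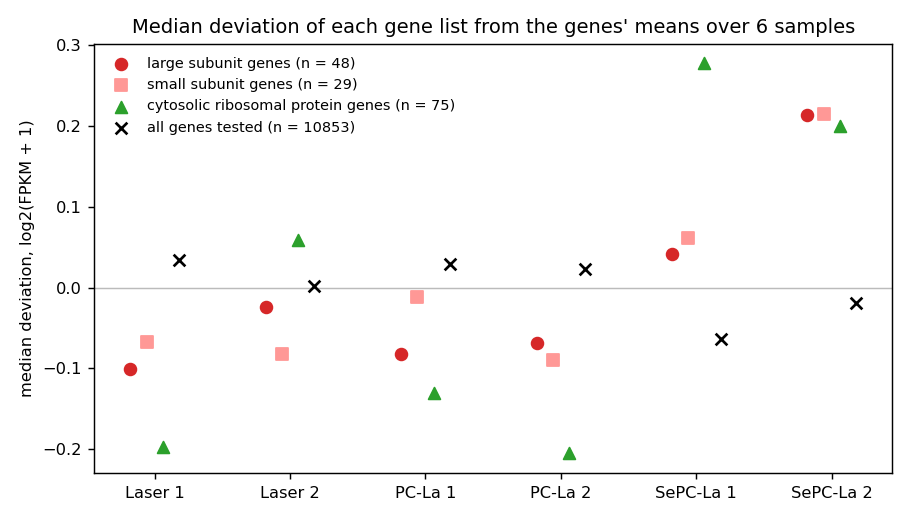
Median deviation of 4 gene lists in each sample from the genes' means over the 6 samples, on the log2(FPKM + 1) scale. Both subunits are highest in SePC-La replicate 2 (0.21), whereas the cytosolic ribosomal protein genes are highest in SePC-La replicate 1 (0.28) and all genes tested lie between -0.06 and 0.03.

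SePC-La was compared with PC-La to set the selenium-enriched photosensitizer beside the plain one under the same light. By the study's measurements SePC also held less zinc, chromium and manganese than PC, so that a part of selenium alone cannot be told apart. The members were again higher in SePC-La. As the SePC-La samples are the same as in the comparison with Laser, the values are not independent of those above. The median difference was 0.20 in the large subunit (1.15-fold), with 41 of 48 members above 0, and 0.17 in the small subunit (1.12-fold), with 23 of 29 above 0. The median over all genes tested was -0.07. In the large subunit 11 members (22.9%) were called higher and in the small subunit 4 (13.8%), against 9.91% of all genes tested, and none was called lower, against 14.4%. The samples did not overlap for 42 members (54.5%) in the direction of SePC-La, against 26.0%, and for 1, Mrpl24, in the direction of PC-La, against 39.5%. No member met the criterion of the study, which 2.98% of all genes tested met. The adjusted p of the 15 members called ranged from 0.134 to 0.199 in limma, with no member under 0.05. At the unadjusted threshold voom called 13 higher, beside 8.90% of all genes in that fit, and none after adjustment.

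In the large subunit the smallest p were those of Mrpl28, Mrpl12 and Mrpl30. Mrpl28 was higher by 0.40 (SE 0.11, adjusted p = 0.134). Mrpl12, with the FPKM given above, was higher by 0.54 (SE 0.17, adjusted p = 0.151), a 1.47-fold difference of the means. Its SePC-La samples were above both PC-La samples but not above both Laser samples, and 13.1% of its exon bases are shared with Gm16755. Mrpl30 (uL30m) had 20.9 and 24.1 FPKM in the Laser tumours, 21.9 and 22.3 in the PC-La tumours and 28.7 and 29.1 in the SePC-La tumours. Both SePC-La samples lay above the 4 others, and the difference from PC-La was 0.37 (SE 0.12, adjusted p = 0.155). The other large subunit genes called were Mrpl38 of the central protuberance, Mrpl45 at the tunnel exit, Mrpl19, Mrpl21, Mrpl9, Mrpl2, Mrpl14 and Mrpl43, with differences of 0.33 to 0.46.

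In the small subunit list the genes with the smallest p were Mrps34, Mrps18a and Mrps28. Mrps34 (mS34) had 7.06 and 9.47 FPKM in the Laser tumours, 7.94 and 6.96 in the PC-La tumours and 11.7 and 10.4 in the SePC-La tumours. SePC-La was higher than PC-La by 0.51 (SE 0.17, adjusted p = 0.157). This gene shares 77.8% of its exon bases, with Nme3 on the same strand, which was listed at 0 in all samples, and with Mapk8ip3 on the opposite strand. Mapk8ip3, named after the values were seen, had 9.49 and 10.4 FPKM in the PC-La tumours and 15.9 and 9.13 in the SePC-La tumours. Mrps18a (mL66) had 8.90 and 10.9 FPKM in the Laser tumours, 9.68 and 8.64 in the PC-La tumours and 12.6 and 12.7 in the SePC-La tumours. Its SePC-La samples lay above the 4 others, and the difference from PC-La was 0.43 (SE 0.14, adjusted p = 0.161). Mrps28 was higher by 0.40 (SE 0.14, adjusted p = 0.169), and Mrps18b, the last of the 4 called, by 0.53 (SE 0.20, adjusted p = 0.184).

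Without SePC-La replicate 2, 1 large and 2 small subunit genes were called in this comparison (3.9%, against 8.62% of all genes tested in that fit), with medians of 0.10 and 0.11. Without PC-La replicate 1 none of the large and 1 of the small subunit genes was called (1.3%, against 3.59%), and without PC-La replicate 2 none of either, against 4.42% of all genes. In these 3 fits the share of members called was below that of all genes. The PC-La samples were the closest pair of replicates in the study, correlating at 0.992 over all genes. Without SePC-La replicate 1, 12 members (15.6%) were called, against 5.23% of all genes, and the medians were 0.31 and 0.24. The medians thus stayed above 0 in every one of these fits.

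**Figure D4:**
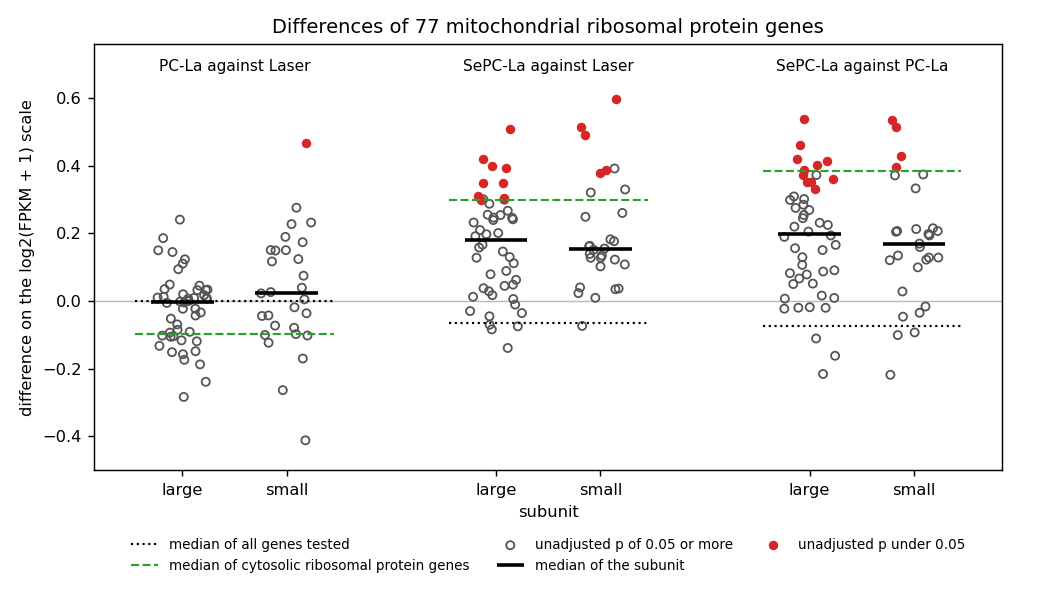
Difference of each of the 77 tested members on the log2(FPKM + 1) scale in the 3 comparisons, by subunit, with filled points for an unadjusted p under 0.05, short bars for the medians, and lines for the medians of all genes tested and of the cytosolic ribosomal protein genes. The members are centred on 0 between PC-La and Laser, and lie mostly above 0 and above the median of all genes against both other groups for SePC-La.

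The split of calls over all genes depended on how the samples were scaled. Over all genes, 532 were called higher and 786 lower in SePC-La against Laser, and 1075 higher and 1562 lower against PC-La. With median-ratio scaling of the FPKM these were 810 and 459, and 1510 and 1086. With quantile normalization they were 545 and 478, and 1249 and 1147. The members were on the higher side in each case. Median-ratio scaling called 21 members higher against Laser and 28 against PC-La, quantile normalization called 16 and 21, and none was called lower by either. Between PC-La and Laser the median of the members was 0.001 as deposited and -0.02 with median-ratio scaling.

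Gene length moved with the comparisons of SePC-La. Over all genes tested, in 5 bins of exon length with equal numbers of genes, from the shortest to the longest, the median difference between SePC-La and Laser was 0.10, 0.01, -0.05, -0.12 and -0.20. Against PC-La it was 0.06, -0.02, -0.07, -0.10 and -0.20. Of the tested members 38 fell in the shortest bin, where their median was 0.20 in both comparisons, above the 0.10 and 0.06 of all genes of that bin. In the longest bin, with 6 members, their medians were 0.14 and 0.16, and each of the 6 lay above the median of its bin in both comparisons. The trend with exon length was also fitted by loess and subtracted in each sample, an alternative chosen after seeing the data. In that fit 7 large and 6 small subunit genes were called higher against Laser and 13 and 6 against PC-La, none lower. The medians were 0.14 to 0.19. Over all genes in that fit 5.28% were called higher against Laser and 11.8% against PC-La.

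**Figure D5:**
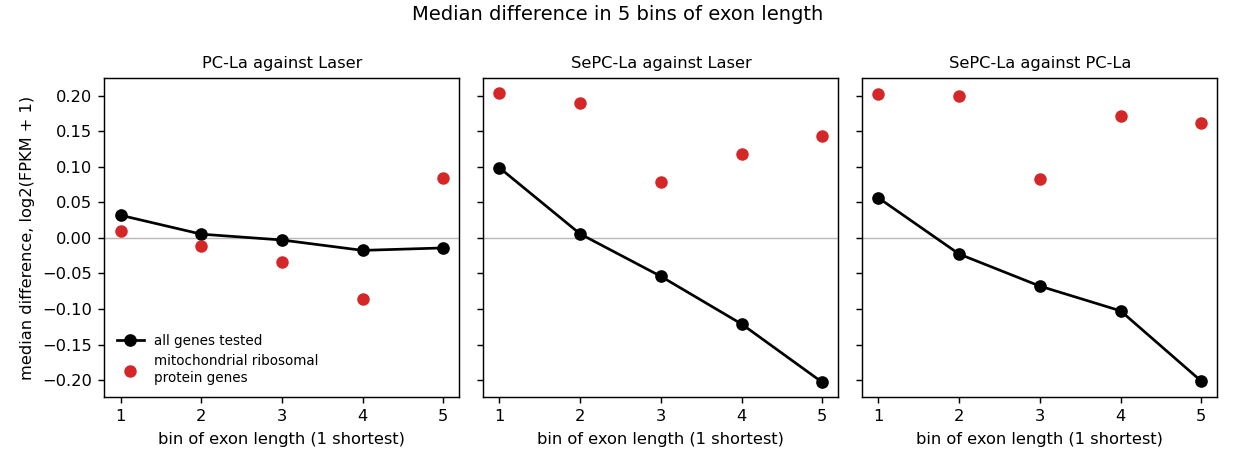
Median difference on the log2(FPKM + 1) scale by bin of merged exon length, from the shortest to the longest, for all genes tested (line) and for the mitochondrial ribosomal protein genes in that bin (points, 38, 16, 9, 8 and 6 members). In both comparisons of SePC-La the line falls to -0.20 in the longest genes and the members lie above it in each bin.

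The proteins sit in different parts of the ribosome, and the members were grouped by place with their values known. The stalk genes Mrpl10, Mrpl11 and Mrpl12 summed to 82.7 and 98.4 FPKM in the Laser tumours, 84.9 and 80.4 in the PC-La tumours and 98.6 and 109 in the SePC-La tumours. Mrpl12 made most of this difference, as Mrpl10 and Mrpl11 differed between SePC-La and Laser by 0.05 and 0.06. The 5 genes of the peptidyl transferase region (Mrpl2, Mrpl3, Mrpl4, Mrpl16 and Mrpl27) summed to 95.6 and 111 FPKM in the Laser tumours, 98.0 and 91.4 in the PC-La tumours and 113 and 125 in the SePC-La tumours. All 5 were above 0 against both groups, with Mrpl2 called against PC-La. Around the tunnel exit (Mrpl17, Mrpl22, Mrpl23, Mrpl24, Mrpl45 and Mrpl47), the differences between SePC-La and Laser ran from -0.03 to 0.35, and those between SePC-La and PC-La from -0.22 to 0.37. Mrpl45, a protein of the exit that faces the inner membrane, was called in both. Mrpl24 had 23.4 and 16.2 FPKM in the Laser tumours, 23.2 and 21.5 in the PC-La tumours and 19.2 and 19.0 in the SePC-La tumours, below PC-La without overlap and without a call. In the central protuberance (Mrpl18, Mrpl38, Mrpl40, Mrpl46, Mrpl48 and Mrpl58), all 6 were above 0 against Laser, from 0.03 to 0.25, and Mrpl38 was called against PC-La. Mrpl58 was the least changed of them, with 5.92 to 6.76 FPKM over the 6 samples. It encodes the peptidyl-tRNA hydrolase that frees stalled chains.

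In the small subunit the genes at the decoding site and the mRNA entry (Mrps5, Mrps12 and Mrps24) summed to 45.4 and 48.2 FPKM in the Laser tumours, 51.9 and 44.1 in the PC-La tumours and 51.1 and 61.3 in the SePC-La tumours, with Mrps12 called against Laser. The head proteins Mrps7, Mrps9, Mrps10 and Mrps14 were above 0 in all 4 cases against both groups, from 0.04 to 0.21, with none called. The platform proteins Mrps6, Mrps11, Mrps18c and Mrps21 were above 0 against Laser, from 0.01 to 0.60. Against PC-La they ran from -0.22 to 0.20 with none called. Mrps6 was the most variable of these, with 16.1 and 8.83 FPKM in the Laser tumours, 14.7 and 13.7 in the PC-La tumours and 10.0 and 14.5 in the SePC-La tumours. The 3 paralogues descended from bacterial S18 (Mrps18a, Mrps18b and Mrps18c) had unlike patterns. Mrps18c lay low in Laser only, Mrps18b lay lowest in PC-La, and Mrps18a lay highest in SePC-La.

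By origin, 12 of the 45 members with a bacterial counterpart were called higher against Laser and 2 of the 30 tested members found only in mitochondria, beside 4.9% of all genes tested, with medians of 0.16 and 0.17. Against PC-La these counts were 9 and 6, beside 9.91%, with medians of 0.19 and 0.18. Between PC-La and Laser they were 1 and 0, beside 3.38%, with medians of 0.008 and -0.0005. The difference between the kinds was not tested.

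Genes of the same pathway outside the rule were read beside the members from lists chosen with earlier results known. Of the mitochondrial ribosomal proteins with other names (Aurkaip1, Chchd1, Dap3, Gadd45gip1 and Ptcd3), 4 were tested and 2 were called higher against Laser. Chchd1 (mS37) had 31.1 and 34.0 FPKM in the Laser tumours, 34.1 and 34.4 in the PC-La tumours and 41.7 and 44.6 in the SePC-La tumours, higher than Laser by 0.40 (SE 0.12, adjusted p = 0.376). Aurkaip1 (mS38) was higher by 0.33 (SE 0.12, adjusted p = 0.385). Both SePC-La samples of Chchd1 lay above the 4 others, as they did for Mrps28 and Mrpl28. Of 25 tested mitoribosome assembly genes, 1 was called higher and 1 lower against Laser, and 3 higher and 1 lower against PC-La. Over all genes tested 4.9% were called higher and 7.24% lower against Laser, and 9.91% and 14.4% against PC-La. C1qbp, a matrix chaperone that takes part in mitochondrial translation, had 59.4 and 64.3 FPKM in the Laser tumours, 54.8 and 52.0 in the PC-La tumours and 90.3 and 80.8 in the SePC-La tumours (difference from PC-La 0.67, SE 0.12, adjusted p = 0.126). Trmt2b, a methyltransferase of mitochondrial RNAs, went the other way, with 5.31 and 5.49, 5.51 and 5.56, and 4.29 and 3.93 FPKM.

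Of the 17 tested translation factors, 1 was called higher against Laser and 3 against PC-La, none lower. These are 5.88% and 17.6%, beside 4.9% and 9.91% of all genes tested. Tsfm, the mitochondrial elongation factor Ts, had 11.4 and 12.9 FPKM in the Laser tumours, 11.4 and 11.1 in the PC-La tumours and 20.0 and 15.8 in the SePC-La tumours (difference from Laser 0.52, SE 0.15, adjusted p = 0.376). The median over this list was near 0 against Laser (-0.0004) and 0.08 against PC-La. Of 17 mitochondrial aminoacyl-tRNA synthetases, 1 was called higher against Laser (Yars2) and 3 against PC-La, beside the same shares of all genes. Their medians were -0.05 and 0.06. None of 10 genes of mitochondrial DNA transcription and replication was called in any comparison. Their median was -0.02 against Laser and 0.04 against PC-La, and that of the assembly genes was 0.04 and 0.03, beside 0.16 and 0.19 over the members of both subunits.

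The mRNAs that the mitochondrial ribosome translates were measured as well, though not the proteins made from them. Of the 13 protein genes of mitochondrial DNA, 12 were tested and none was called in any comparison. They summed to 21221 and 29867 FPKM in the Laser tumours, 19953 and 18878 in the PC-La tumours and 22228 and 23671 in the SePC-La tumours. The median difference was -0.31 between PC-La and Laser, -0.16 between SePC-La and Laser and 0.16 between SePC-La and PC-La. The SePC-La sums lay within the range of Laser, in which Laser replicate 2 was the highest of all samples.

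The cytosolic ribosomal protein genes, 75 of 79 tested, were higher in SePC-La as well. Their median difference was 0.30 against Laser, with 23 called higher, and 0.38 against PC-La, with 42 called higher, none lower in either. Over all genes tested 4.9% and 9.91% were called higher. For the mitochondrial genes of both subunits the medians were 0.16 and 0.19. In PC-La against Laser the cytosolic median was -0.10, with none called. By sample the cytosolic genes deviated most in SePC-La replicate 1 (0.28, against 0.20 in SePC-La replicate 2), and the mitochondrial genes in SePC-La replicate 2 (0.21, against 0.05 in SePC-La replicate 1). These are values side by side and the difference between the lists was not tested.

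Other gene groups moved with the SePC-La samples, and their part in the result was not tested. Over all genes tested 4.9% were called higher in SePC-La against Laser and 9.91% against PC-La. Myc, a transcription factor that acts on many genes of ribosomes and mitochondria, had 185 and 256 FPKM in the Laser tumours, 122 and 133 in the PC-La tumours and 448 and 295 in the SePC-La tumours. Its difference between PC-La and Laser was -0.77 (SE 0.24, adjusted p = 0.753), where the median of the members was 0.001. Between SePC-La and Laser it was 0.74 (adjusted p = 0.382), where the median of the members was 0.16. Between SePC-La and PC-La it was 1.51 (SE 0.24, adjusted p = 0.12), where the median of the members was 0.19. Nrf1, Gabpa, Yy1 and Sp1, whose factors recognise the letters searched in the promoters, were not called in any comparison. The 10 hypoxia genes summed to 982 and 964 FPKM in the Laser tumours, 899 and 866 in the PC-La tumours and 1843 and 1552 in the SePC-La tumours, and 9 of the 10 were called higher against each other group. The 12 proliferation markers summed to 385 and 399, 374 and 370.2, and 450.0 and 431 FPKM, with 2 called higher against Laser and 5 against PC-La.

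Markers of other cell types were read in the same way, and their part in the result was not tested. Over all genes tested 4.9% were called higher and 7.24% lower in SePC-La against Laser, and 9.91% and 14.4% against PC-La. The 10 neutrophil markers, 6 of them tested, summed to 39.9 to 152 FPKM in the Laser tumours, 79.5 to 147 in the PC-La tumours and 338 to 443 in the SePC-La tumours, highest in SePC-La replicate 2 as the members were, and 3 were called higher in SePC-La against each other group. The 10 fibroblast markers summed to 292 to 1252 FPKM in the Laser tumours, 1582 to 1730 in the PC-La tumours and 126 to 647 in the SePC-La tumours, and the 10 macrophage markers to 664 to 719, 903 to 959 and 393 to 740. None of either list was called in SePC-La against Laser. Against PC-La 1 fibroblast marker was called lower, and 1 macrophage marker was called higher and 4 lower. The skeletal muscle markers were at most 6.14 FPKM in sum in PC-La and SePC-La, so that the comparison of these groups holds little muscle RNA. Both comparisons with Laser hold a difference in it. Of the 7 tested, 6 were called lower than Laser in PC-La (median -2.53), beside 2.4% of all genes. In SePC-La 6 were also called lower than Laser (median -2.58), beside 7.24%. The adipocyte markers summed to 59.3 FPKM in SePC-La replicate 2 and to 2.05 to 18.2 FPKM in the others, with none of the 3 tested called in any comparison. The endothelial markers summed to 33.6 to 34.0, 35.9 to 47.6 and 45.2 to 53.9 FPKM, with 3 of 9 called higher in SePC-La against Laser and none against PC-La. The T cell markers summed to 6.87 to 17.3, 15.4 to 18.3 and 8.90 to 19.9 FPKM, so that the groups overlapped, with 1 of 7 called higher in SePC-La against each other group.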

How the data were processed

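RNA sequencing of 6 tumour samples was analysed, 2 for each of Laser, PC-La and SePC-La. The authors deposited 1 table of FPKM values, and the unit was settled from the values, which gave whole reads with GENCODE M21 exon lengths (GRCm38; tolerance 0.1) in all samples for 98.0% of the expressed genes. Per the labels, the authors used HISAT2 2.0.5, HTSeq 0.9.1 and DESeq 1.30.0, and the build is given as mm9. As the deposited FPKM matched GRCm38 lengths, coordinates are those of GENCODE M21. Reads were prepared with NEBNext Ultra II, and the strand setting is not given in the sources used here.

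Differences were tested with limma 3.58.1 (R 4.3.3) on log2(FPKM + 1), with trend and robust estimation, keeping genes that averaged 1 FPKM or more. All 6 samples entered 1 fit with a mean for each group, and p-values were adjusted by Benjamini-Hochberg over 10853 genes. A fold change on this scale understates that of low genes. The deposited FPKM were not rescaled. The members and lists were chosen with earlier results of these data known. In each subunit, the genes named were the 3 highest and lowest in mean FPKM, and the 3 smallest p in each direction at an unadjusted p under 0.05. Other names were chosen after their values were seen. Alternatives were a pseudocount of 0.1, a minimum mean of 5 FPKM or none, a fit of only the 4 samples compared, a replicate block, each sample left out, a fit without trend or without robust estimation, median-ratio and quantile scaling, voom on recovered reads and loess on exon length. The scripts were tested on simulated data. Promoters were from RefSeq, and protein sequences were not used here. Plots were made with Python 3.11.15 and matplotlib 3.10.9.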

Additional observations from a re-analysis of the deposited data

How the results depend on the processing

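Of 13 calls of named members, 190 of 219 values under the alternatives kept their direction and an unadjusted p under 0.05, 29 kept the direction only and 0 reversed. These calls had been chosen for small p in the same samples, and their groups did not overlap. Leaving out a sample could therefore not reverse a direction, and the counts are not independent support. No setting gave a member an adjusted p under 0.05. With only the 4 samples compared, 3 large and 3 small subunit genes were higher in SePC-La against Laser, beside 2.87% of all genes. Median-ratio scaling called 9 small subunit genes against Laser (median 0.23), and against PC-La 20 large (median 0.30) and 8 small (median 0.27). Over all genes it called 7.46% higher against Laser and 13.9% against PC-La. Quantile normalization called 7 small subunit genes against PC-La, beside 11.5% of all genes. voom called 3 small subunit genes in SePC-La against Laser, beside 4.71% of all genes. In PC-La against Laser, voom and a minimum mean of 5 FPKM, which removes Mrps18c, each called 0. Over all genes they called 3.84% and 2.94% higher there. For voom the cause was not tested.

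With each sample left out in turn, the large subunit had 0 to 1 genes higher and 0 to 5 lower in PC-La against Laser, 1 to 13 higher and 0 to 1 lower in SePC-La against Laser (median 0.066 to 0.276), and 0 to 15 higher in SePC-La against PC-La (median 0.10 to 0.31). The small subunit had 0 to 2 higher and 0 to 2 lower, 2 to 8 higher (median 0.13 to 0.26), and 0 to 6 higher (median 0.11 to 0.24). A lone sample is then taken to vary like the other groups. The share of all genes called also moved between these fits, so that the ranges of counts alone do not describe the members. As given above, the share of members called was close to or below that of all genes in some of them. The median over all genes was -0.09 to -0.03 in SePC-La against Laser and -0.09 to -0.05 in SePC-La against PC-La.

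With a replicate block, 6 large and 4 small subunit genes were higher in SePC-La against Laser, beside 3.61% of all genes. In SePC-La against PC-La 8 and 3 were higher, beside 7.87%. In PC-La against Laser 0 and 1 were higher, beside 2.39%. Deviations of same-numbered samples correlated at 0.09, -0.43 and -0.18 between the groups. With 2 samples a group the deviations mirror each other, so that each value is a single contrast whose sign depends on the numbering. Whether same-numbered samples share a batch cannot be told from these values. Depth limits the low members, such as Mrps18c at 39 to 75 reads a sample, and 2 samples a group limit all of them.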
